A study of Mus musculus with 12 samples.

Results

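The genes described here protect cells against oxidants, reactive aldehydes, foreign chemicals and free metal ions. They were followed in an osteoblast line, 2T3, and an osteocyte line, MLO-Y4, both of mouse. Members were all array spots with 1 gene symbol that starts with Gst, Aldh, Prdx, Gpx, Txn, Cyp plus a digit or Sod plus a digit, together with Hmox1, Hmox2, Mt1, Mt3, Cat, Nqo1, Gclm, Gsr, Gss and Nfe2l2. This gave 79 spots for 79 genes out of 5030 spots. They comprised 33 cytochrome P450 genes, 13 glutathione S-transferase genes, 8 aldehyde dehydrogenase genes, 5 genes of the thioredoxin system, 4 peroxiredoxin genes, 4 glutathione peroxidase genes, 2 superoxide dismutase genes, 2 metallothionein genes and 8 single genes. Mt2 and Gclc, also looked for, were not analysed here.

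Each of the groups 2T3 low, 2T3 C0, MLO-Y4 low and MLO-Y4 high was measured with 3 spotted arrays of total RNA, 12 arrays with 1 colour each. The 2T3 cells come from a mouse in which the BMP-2 promoter drives the SV-40 T antigen, and the MLO-Y4 cells from a mouse in which the osteocalcin promoter drives a T antigen, so all 4 groups carry an immortalising transgene. The 2T3 groups were meant to set sparse against confluent osteoblasts, and the MLO-Y4 groups osteocytes without gap junctions against osteocytes with them. That C0 stands for confluence and high for cells with gap junctions was inferred, since the opposite group of each line is called low. Each cell type is 1 line, so cell type cannot be told apart from the line or its source mouse. The labels give no treatment and do not say whether the arrays numbered 1 to 3 are separate cultures. The spread behind every p-value is thus one between arrays, and it may be technical in part or whole.

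Most of these genes serve a shared chemistry. Glutathione and thioredoxin, kept reduced with NADPH, supply the electrons with which peroxidases and peroxiredoxins remove peroxides. Glutathione S-transferases attach glutathione to reactive compounds, aldehyde dehydrogenases oxidise aldehydes to acids, and cytochromes P450 hydroxylate steroids, vitamins and foreign compounds. Many of the genes are induced by the transcription factor NRF2, encoded by Nfe2l2, which is held back by KEAP1 and a CUL3 ubiquitin ligase. It acts through antioxidant response elements. Metallothioneins bind zinc, copper and cadmium and are induced by a zinc-sensing factor through metal response elements. In bone, oxidants are known to affect both the formation of bone by osteoblasts and the survival of osteocytes.

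Levels below are scaled intensities: the arrays were multiplied so that the 1253 spots above the detection limit on all 12 arrays had the same median on each. An array's lowest value, with its sign dropped, served as the detection limit, since background readings should scatter about as far above 0 as below. Negative values are background-subtracted readings. For tests, values were floored at 4.15 scaled units and converted to log2, and group levels are geometric means of the floored values. A log2 difference is MLO-Y4 minus 2T3 unless stated. It comes with the standard error of the limma fit (SE) and a p adjusted over all 5030 spots by Benjamini-Hochberg, called at 0.05. The floor compresses differences of dim spots. Of the members, 27 were above the limit on all 12 arrays, 47 on some and 5 on none. The 5 were Cyp2d10, Cyp2g1, Cyp3a11, Cyp3a41a and Nqo1, the NRF2-induced quinone reductase gene. All 4 peroxiredoxin and both metallothionein spots were above the limit everywhere, against 2 of 33 P450 spots. Closely related Gst, Cyp and Mt genes share sequence, so part of a spot's signal may come from a relative.

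Total intensity per array ran from 212491 (2T3 low 3) to 1680311 (2T3 C0 3). The share of spots above the limit ran from 37.9% (MLO-Y4 high 1, with MLO-Y4 low 1 at 38.1%) to 74.8% (2T3 low 1). On 2T3 low 3 the median spot read 4 before scaling and 1 unit became 4.85 scaled units. Its dim readings therefore move in steps of that size. Osteocyte markers set the lines apart, with 3 of 4 higher in MLO-Y4 (Ackr3, Pdpn and Cd44) and Phex, a defining osteocyte gene, above the limit on 0 of 12 arrays. Their summed level was 197 to 408 in 2T3 and 1319 to 3559 in MLO-Y4. Of 4 osteoblast markers measured, 0 were called higher and 1, Omd, was lower in MLO-Y4, with overlapping sums of 169 to 703 and 140 to 723. Omd was above the limit on 4 of 12 arrays. The others, not called, differed in sign. Alpl was at 1.99 (SE 0.71, adjusted p = 0.108), Bglap at -2.29 (SE 1.13, adjusted p = 0.249) and Ibsp at -0.96 (SE 0.68, adjusted p = 0.431). Macrophages hold much haem oxygenase, so their markers were read as well. Of 9 macrophage and osteoclast spots 0 were higher and 1, Tyrobp, was lower in MLO-Y4. Their sums were 265 to 612 in 2T3 and 202 to 402 in MLO-Y4, with Ptprc above the limit on 0 of 12 arrays. Of the endothelial, adipocyte and liver markers (4, 2 and 2 spots) none was higher in MLO-Y4. The adipocyte spot Pparg was called lower (-3.05, SE 0.50, adjusted p = 0.00289).

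Arrays numbered 1 stood apart. On both MLO-Y4 arrays of that number, 501 of 5030 spots (9.96%) were below the limit while the other 4 MLO-Y4 arrays were above it, against 0 spots for number 2 and 15 (0.298%) for number 3. Of the members 5 (6.33%) showed this, and all were P450 genes: Cyp2a5, Cyp2b19, Cyp2c37, Cyp2c40 and Cyp2f2. Cyp2c40 read -1.78, 224 and 143 in MLO-Y4 low and 4.72, 562 and 119 in MLO-Y4 high for numbers 1, 2 and 3. In 2T3 C0 it read -0.794, 304 and 296, so there too the array numbered 1 was the low one. Gpx3, the secreted glutathione peroxidase gene, was above the limit on all arrays but followed the same numbers, at 1253, 1744 and 2741 in 2T3 low, 54.02, 2907 and 3056 in 2T3 C0, 310.2, 2742 and 4249 in MLO-Y4 low and 259, 3552 and 4475 in MLO-Y4 high. The cause was not tested. Counts are therefore also given without the 4 arrays numbered 1.

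**Figure D1:**
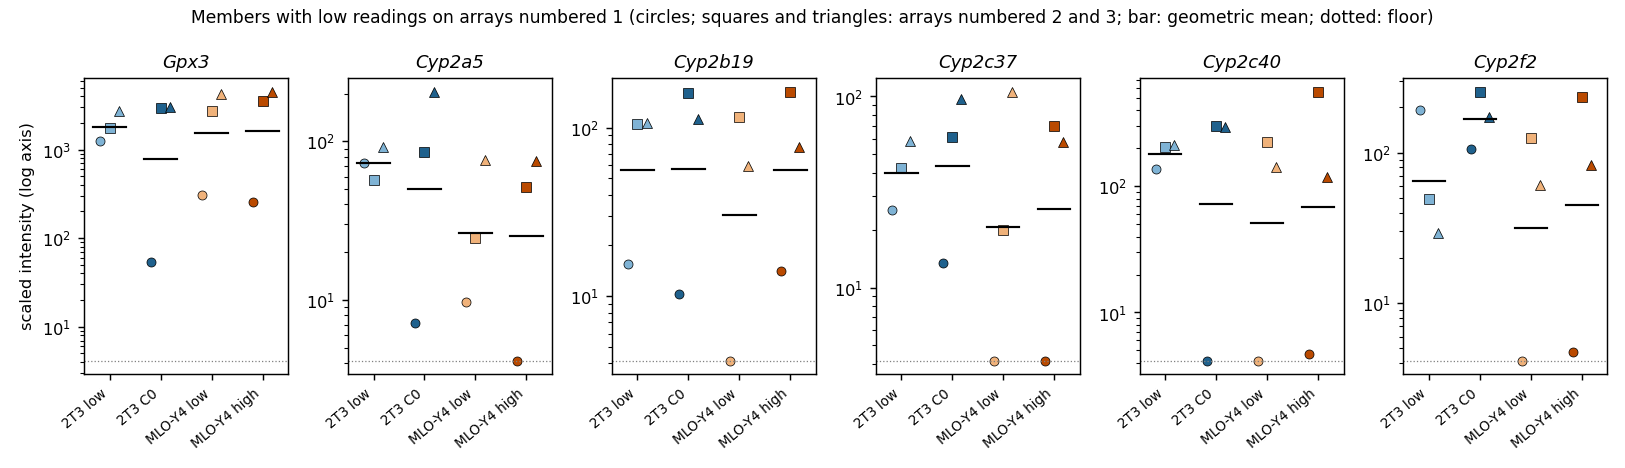
Scaled intensity on a log axis for Gpx3 and the 5 P450 members that were below the detection limit on both MLO-Y4 arrays numbered 1 and above it on the other 4 MLO-Y4 arrays, with 1 point per array and a bar at each group's geometric mean. The circles, arrays numbered 1, lie lowest of their group in both MLO-Y4 groups and in 2T3 C0, while in 2T3 low the circle is lowest for Gpx3, Cyp2b19, Cyp2c37 and Cyp2c40, in the middle for Cyp2a5 and highest for Cyp2f2.

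Member promoters were read for the elements named above. RefSeq windows of the 250 bases before the start (GRCm38.p6) were found for 62 of 79 members, 75 windows in all. Of the 8 members higher in MLO-Y4, Mt1, Txnrd1, Aldh1a2, Gstt1 and Txnrd2 had a window and were searched, while Hmox1, Aldh3a1 and Sod3 had none and were not. The antioxidant response element was searched as TGACNNNGC, and the metal response element as TGCACNC or TGCGCNC, each on both strands. The first was in 9 of 75 member windows (12%) and in 10.2% of all 32851 windows. Either form of the metal element was in 12 of 75 (16%) and in 21.4% of all. A match describes letters, not a site in use. Shown are Mt1, the metallothionein gene, and Txnrd1 and Aldh1a2, in which a window holds an antioxidant element match. They run 5′ to 3′ on the gene's strand, with matches of either element in capitals.
Mt1, chr8:94178839-94179088, plus strand: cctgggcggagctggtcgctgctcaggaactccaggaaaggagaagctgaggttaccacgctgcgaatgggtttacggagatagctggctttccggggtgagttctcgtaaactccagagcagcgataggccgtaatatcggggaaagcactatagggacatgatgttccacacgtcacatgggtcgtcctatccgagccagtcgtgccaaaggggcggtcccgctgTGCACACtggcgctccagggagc
Txnrd1, chr10:82858956-82859205, plus strand: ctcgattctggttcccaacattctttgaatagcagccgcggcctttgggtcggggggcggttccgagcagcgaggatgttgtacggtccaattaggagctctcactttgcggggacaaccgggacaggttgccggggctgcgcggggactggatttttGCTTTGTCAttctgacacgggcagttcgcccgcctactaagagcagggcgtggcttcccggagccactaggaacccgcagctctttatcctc
Aldh1a2, chr9:71215539-71215788, plus strand: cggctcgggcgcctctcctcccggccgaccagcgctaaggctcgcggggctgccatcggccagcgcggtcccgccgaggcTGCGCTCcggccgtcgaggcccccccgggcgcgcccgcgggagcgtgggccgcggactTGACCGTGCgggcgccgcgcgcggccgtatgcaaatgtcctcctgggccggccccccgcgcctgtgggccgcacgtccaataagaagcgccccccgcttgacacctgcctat
The match in Mt1 lies 23 to 17 bases before the RefSeq start and is of the TGCACNC form. Bases after that start were not searched, so metal elements there, if any, are not counted. That in Txnrd1 is the antioxidant element on the minus strand, 92 to 84 bases before the start, and neither of the other 2 Txnrd1 windows holds a match. Aldh1a2 holds a TGCGCNC match (170 to 164 bases before) and an antioxidant element match (112 to 104). The windows of Gstt1 and Txnrd2 each hold 1 match of the TGCGCNC form.

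The lines were then compared over both densities, which asks which protective genes set the osteocyte line apart from the osteoblast line. The haem oxygenase gene Hmox1 and the metallothionein gene Mt1 were 10.5-fold and 6.72-fold higher in MLO-Y4. The aldehyde dehydrogenase genes Aldh3a1 and Aldh1a2, the transferase gene Gstt1, the superoxide dismutase gene Sod3 and the thioredoxin reductase genes Txnrd1 and Txnrd2 rose as well, while Aldh18a1 and Cyp11b2 fell. In all, 10 of 79 members (12.7%) were called, 8 higher and 2 lower, against 10.9% of all 5030 spots. Higher calls made up 10.1% of members against 4.77% of spots, and lower calls 2.53% against 6.12%. Among those above the limit on all 12 arrays, higher calls made up 11.1% of 27 members and 9.74% of 1253 spots. Lower calls made up 3.7% and 5.43% there. The total share of members called is near that of all spots, so it is not a result about these genes. An unadjusted p under 0.05 was found for 17 members (21.5%, against 24.2% of spots), and the arrays of the lines did not overlap for 9 (11.4%, against 6.94%). Among those above the limit on all 12 arrays, the shares without overlap were 14.8% of members and 12.1% of spots. The median log2 difference was -0.21 over the members and -0.41 over all spots. Without the 4 arrays numbered 1, 7 members were called (6 higher, 1 lower; 8.86% against 8.75% of spots), 6 of them among the 10.

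The direction of weaker differences depended on how the arrays were scaled. With array medians made equal over all spots, the median of all spots moved from -0.41 to 0.11 and that of the members from -0.21 to 0.29. Under that scaling 11 members were called, all higher, and with quantile normalization 10 were called, 9 higher and 1 lower. Of all calls, 43.8% were higher with the scaling used here, 62.6% with quantile normalization and 81.5% with equal medians. Called under all 3 were Hmox1, Mt1, Aldh3a1, Aldh1a2, Gstt1, Sod3 and Txnrd2. Their sizes moved with the scaling as well. The log2 difference of Hmox1 was 3.31 with quantile normalization and 4.24 with equal medians, and that of Mt1 2.21 and 3.61. In these bulk RNA samples, more cells that express a gene and more RNA per cell cannot be told apart.

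**Figure D2:**
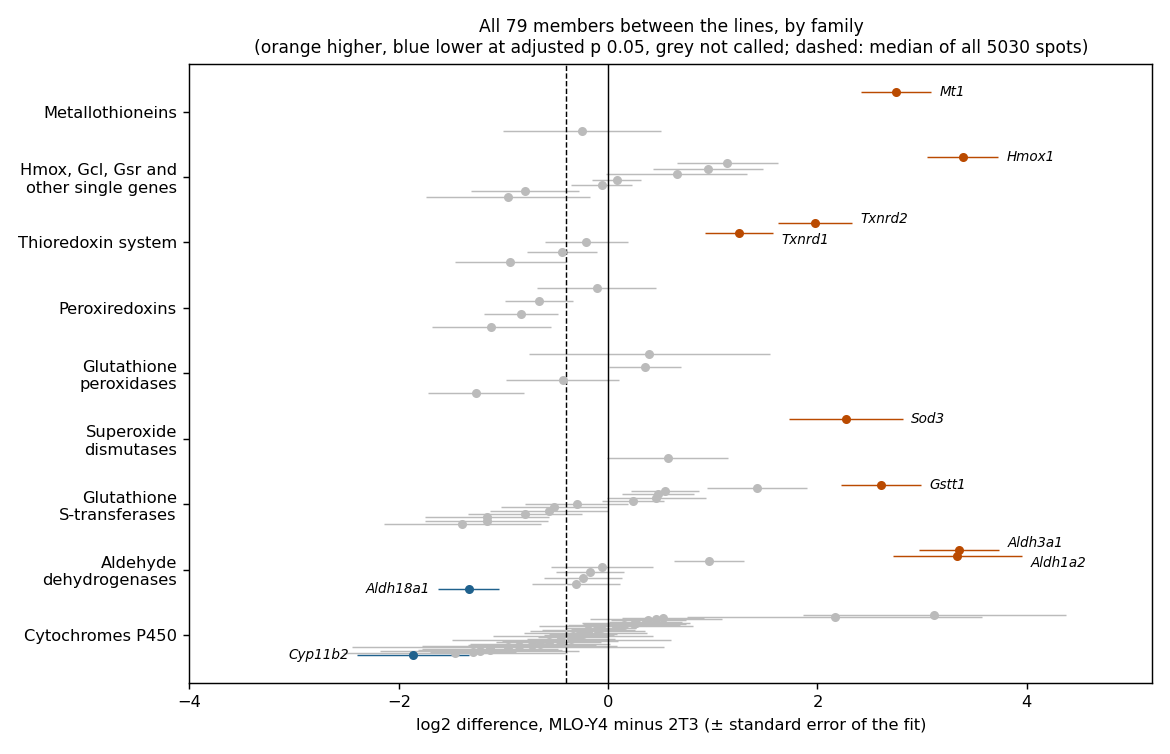
Log2 difference between the lines (MLO-Y4 minus 2T3, with its standard error) for the 79 members, arranged by family, with called members in colour and named. Called members lie on the right in 6 of the 9 families, 2 called members lie on the left, and the P450 genes gather between -2 and 1 apart from Cyp24a1 and Cyp2a4. The dashed line is the median of all 5030 spots (-0.41).

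Hmox1 encodes the inducible oxygenase that splits haem into biliverdin, iron and carbon monoxide. Its scaled intensity was 212, 136 and 184 in 2T3 low, 189.9, 328 and 386 in 2T3 C0, 3048, 1512 and 3101 in MLO-Y4 low and 2174, 1645 and 3276 in MLO-Y4 high. Every MLO-Y4 array lay above every 2T3 array. Means were 224 and 2348, a log2 difference of 3.39 (SE 0.34, adjusted p = 0.000126). Hmox2, which encodes the constitutive form of the enzyme, was at -0.061 (SE 0.29, adjusted p = 0.919), with a 95% interval of -0.70 to 0.58.

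Mt1 encodes a small cysteine-rich protein that binds zinc and copper. The 12 arrays read 2161, 1405 and 2106 in 2T3 low, 4073, 4609 and 7397 in 2T3 C0, 21955, 11998 and 26296 in MLO-Y4 low and 22563, 15829 and 33079 in MLO-Y4 high. In 2T3 the C0 arrays lay above the low arrays, and all 6 MLO-Y4 arrays lay above both. Mt1 rose by 2.75 (SE 0.33, adjusted p = 0.000435), from 3100.2 to 20836. Mt3, the metallothionein known from brain, was at -0.25 (SE 0.75, adjusted p = 0.864), with an interval of -1.91 to 1.41.

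Among the aldehyde dehydrogenases, 2 of 8 rose and 1 fell (37.5% called, against 10.9% of all spots). Aldh3a1, whose enzyme oxidises aldehydes from lipid peroxidation and is abundant in the cornea, read 5.85, -1.60 and 4.85 in 2T3 low, 14.3, 6.23 and 9.78 in 2T3 C0, 101, 35.9 and 55.02 in MLO-Y4 low and 50.1, 81.1 and 142 in MLO-Y4 high. The lines did not overlap, and the detection limit was passed by 2 of 6 2T3 arrays and all 6 MLO-Y4 arrays. The difference was 3.35 (SE 0.38, adjusted p = 0.000294), or 10.2-fold, and 1.97 with values floored at the highest scaled limit. Aldh1a2, which makes retinoic acid from retinal, read 16.9, 2.40 and 29.1 in 2T3 low, 3.97, 18.2 and 42.6 in 2T3 C0, 224, 129 and 133 in MLO-Y4 low and 145, 93.9 and 134 in MLO-Y4 high. All MLO-Y4 arrays exceeded all 2T3 arrays, of which 4 of 6 were above the limit. It rose by 3.34 (SE 0.62, adjusted p = 0.00576; 2.63 with the higher floor), and the call ended without the 4 arrays numbered 1 (adjusted p = 0.0664).

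Aldh18a1, which despite its name makes the proline precursor pyrroline-5-carboxylate from glutamate, went the other way. Its readings were 98.9, 103 and 150.4 in 2T3 low, 159.7, 190.4 and 138 in 2T3 C0, 77.3, 51.7 and 81.1 in MLO-Y4 low and 35.9, 63.7 and 34.1 in MLO-Y4 high. All 12 were above the limit, and the 2T3 arrays lay above the MLO-Y4 arrays without overlap. Its log2 level fell by 1.33 (SE 0.29, adjusted p = 0.0138), which made it 2.52-fold lower. The call ended with equal medians over all spots (log2 -0.47, adjusted p = 0.577) and without the 4 arrays numbered 1 (adjusted p = 0.0678). The mitochondrial Aldh2, which clears acetaldehyde, was at -0.31 (SE 0.42, adjusted p = 0.688), and Aldh3a2, which oxidises long-chain fatty aldehydes, at 0.96 (SE 0.33, adjusted p = 0.0967). Aldh3a2 was called as higher with equal medians over all spots and with quantile normalization. Over the 8 genes the median was -0.12.

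Of 13 glutathione S-transferase spots, 1 rose and 0 fell (7.69% called, against 10.9% of all spots). That was Gstt1, of the theta class, which conjugates small halogenated compounds, at 24.7, 11.2 and 9.70 in 2T3 low, 46.9, 28.02 and 37.4 in 2T3 C0, 272, 115 and 81.1 in MLO-Y4 low and 166, 116 and 138 in MLO-Y4 high. The 2T3 arrays reached at most 46.9 and the MLO-Y4 arrays began at 81.1. The rise was 2.61 (SE 0.38, adjusted p = 0.00159), 6.09-fold. The other theta gene, Gstt2, was at -0.52 (SE 0.51, adjusted p = 0.577). Gsto1, of the omega class, was next in size at 1.42 (SE 0.48, adjusted p = 0.0885). It was called with equal medians over all spots and without 2T3 low 3. Gstp1, the pi class gene, was at 0.48 with an interval of -0.28 to 1.23. The alpha class genes Gsta1 to Gsta4 lay from -1.39 to -0.30, each above the limit on at most 2 of 6 MLO-Y4 arrays. The family's median was -0.30.

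**Figure D3:**
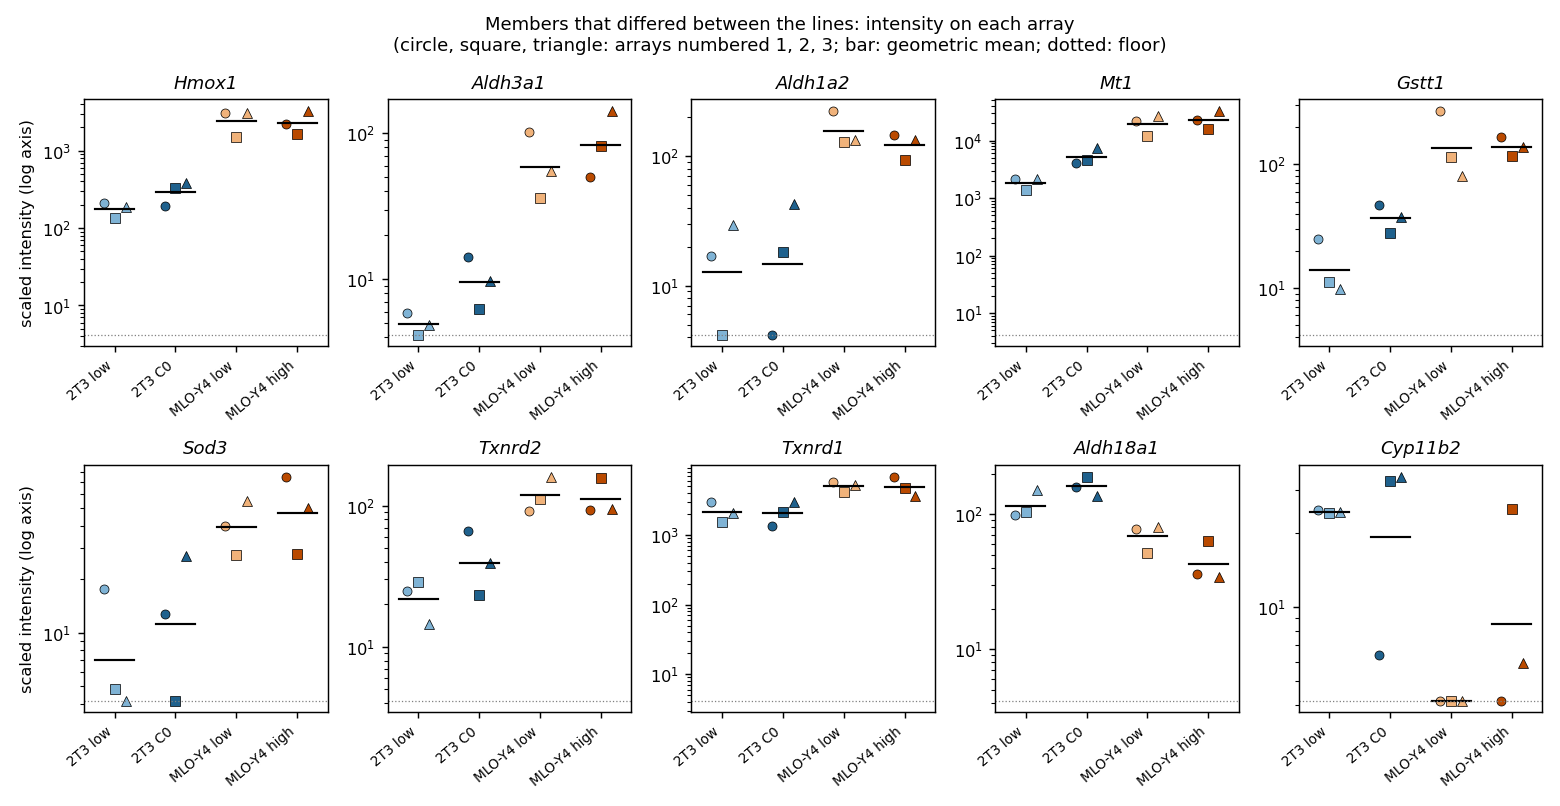
Scaled intensity on each of the 12 arrays (log axes of differing range) for the 10 members called between the lines, with 1 point per array, a bar at each group's geometric mean and values under the floor drawn at it. In 9 panels the MLO-Y4 points do not overlap the 2T3 points, and in the panel of Cyp11b2 they do.

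In the thioredoxin system both reductase genes rose while the thioredoxin genes were not called. Txnrd2, the mitochondrial selenoenzyme that reduces thioredoxin, read 24.7, 28.9 and 14.6 in 2T3 low, 65.9, 23.3 and 39.1 in 2T3 C0, 91.5, 112 and 161 in MLO-Y4 low and 93.5, 156 and 94.96 in MLO-Y4 high. The highest 2T3 array lay below the lowest MLO-Y4 array, and the difference was 1.97 (SE 0.35, adjusted p = 0.00492), 3.93-fold. Txnrd1, the cytosolic form, read 2995, 1512 and 2038 in 2T3 low, 1346, 2161 and 2948 in 2T3 C0, 5747, 4067 and 5254 in MLO-Y4 low and 6865, 4739 and 3614 in MLO-Y4 high. It rose 2.38-fold (1.25, SE 0.32, adjusted p = 0.0307), again without overlap, though its lowest MLO-Y4 array, at 3614, was close to the highest 2T3 array, at 2995. The cytosolic substrate gene Txn1 was at -0.44 (SE 0.33, adjusted p = 0.463) and the mitochondrial Txn2 at -0.21 (SE 0.40, adjusted p = 0.778).

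Of the 8 rises, that of Txnrd1 lost its call in the most fits without 1 array. With quantile normalization its adjusted p was 0.0503 and with the number as a random block 0.0727. It ended in 8 of 12 fits without 1 array, holding only without 2T3 low 1 (0.0186), 2T3 C0 3 (0.0336), MLO-Y4 high 1 (0.0491) or MLO-Y4 high 3 (0.0337). The highest adjusted p among these fits was 0.0660, and the fold ran from 2.14 to 2.61.

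**Figure D4:**
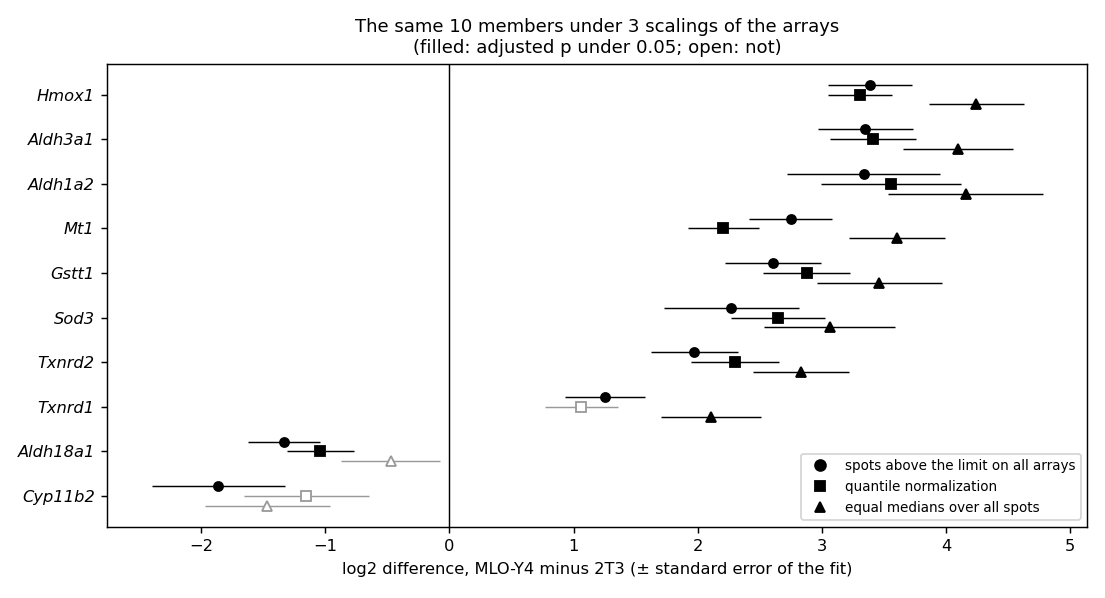
Log2 difference between the lines with its standard error for the 10 called members under 3 scalings of the arrays, filled where the adjusted p was under 0.05 and open where it was not. With equal medians over all spots all 10 differences lie further right than with the scaling used here. The open symbols belong to Txnrd1 (quantile), Aldh18a1 (equal medians) and Cyp11b2 (both).

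Of the superoxide dismutases, Sod3, the secreted form that sits on the matrix outside cells, rose. Readings were 17.6, 4.81 and 0 in 2T3 low, 12.7, 1.56 and 27.04 in 2T3 C0, 39.99, 27.3 and 55.02 in MLO-Y4 low and 75.6, 27.7 and 50.4 in MLO-Y4 high. Of the 2T3 arrays 3 of 6 were above the limit, and the highest of them stayed just under the lowest MLO-Y4 array. The difference was 2.27 (SE 0.54, adjusted p = 0.0215), and 1.17 with the higher floor. Its call ended, with the adjusted p in brackets, without 2T3 low 2 (0.0510), 2T3 low 3 (0.0524) or MLO-Y4 low 3 (0.0545), and without the 4 arrays numbered 1 (0.0860). The mitochondrial Sod2 was at 0.57 (SE 0.58, adjusted p = 0.588).

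Of the genes for the removal of peroxides, limma called 0 of 4 peroxiredoxins and 0 of 4 glutathione peroxidases, against 10.9% of all spots. In each family 1 had an unadjusted p under 0.05, against 24.2% of all spots. The 4 peroxiredoxin differences ran from -1.11 (Prdx1, SE 0.57, adjusted p = 0.263) to -0.11 (Prdx4, SE 0.57, adjusted p = 0.927). The smallest p was that of Prdx3, the mitochondrial peroxiredoxin, at 76.1, 180.3 and 325 in 2T3 low, 299, 226 and 279.6 in 2T3 C0, 123, 128 and 140.4 in MLO-Y4 low and 112, 112 and 96.4 in MLO-Y4 high. These readings overlapped between the lines and gave -0.83 (SE 0.35, adjusted p = 0.179). Its sign turned with equal medians over all spots (0.028), and it was called as lower without 2T3 low 1 (adjusted p = 0.0176) and without the 4 arrays numbered 1 (adjusted p = 0.0455). Prdx1 was called as lower without 2T3 low 2.

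Among glutathione peroxidases, Gpx4, which reduces lipid hydroperoxides in membranes, had the smallest p. It read 675, 1179.7 and 543 in 2T3 low, 434, 372 and 551 in 2T3 C0, 809, 215 and 164 in MLO-Y4 low and 306, 221 and 104 in MLO-Y4 high. The arrays of the lines overlapped, and the difference was -1.26 (SE 0.46, adjusted p = 0.112, and 0.0302 without MLO-Y4 low 1). The cytosolic Gpx1 was at 0.35 (SE 0.34, adjusted p = 0.570), the secreted Gpx3, whose low readings on arrays numbered 1 are given above, at 0.40 (SE 1.16) and Gpx5 at -0.43 (SE 0.54). Catalase, encoded by Cat, was at -0.96 (SE 0.79, adjusted p = 0.498).

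Genes that make and recycle glutathione gave wide intervals. Gsr, whose reductase recycles glutathione, was at 1.14 (SE 0.48, adjusted p = 0.175) and was called with equal medians over all spots and with quantile normalization. Gclm, the modifier subunit of the rate-limiting ligase of glutathione synthesis, was at -0.79 (SE 0.52, adjusted p = 0.385) and Gss, the synthetase of the last step, at 0.65 (SE 0.68, adjusted p = 0.596). Nfe2l2, the NRF2 gene, read 85.9, 9.62 and 29.1 in 2T3 low, 65.1, 74.2 and 52.9 in 2T3 C0, 39.99, 89.04 and 70.9 in MLO-Y4 low and 167, 139.6 and 54.9 in MLO-Y4 high. Its lines overlapped, at 0.95 (SE 0.53, adjusted p = 0.301, interval -0.21 to 2.11). NRF2 is controlled largely at the level of the protein, which these arrays do not measure.

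Cytochromes P450 were mostly near background. Of 33 spots 0 rose and 1 fell (3.03% called, against 10.9% of all spots), with a median of -0.28. The one that fell was Cyp11b2, the aldosterone synthase gene of the adrenal cortex, at 24.7, 24.04 and 24.3 in 2T3 low, 6.35, 32.7 and 33.9 in 2T3 C0, -3.56, 1.44 and 0 in MLO-Y4 low and 1.89, 25.1 and 5.93 in MLO-Y4 high. Above the limit were 5 of 6 2T3 arrays and 1 of 6 MLO-Y4 arrays, MLO-Y4 high 2, which lay within the 2T3 range. Its difference of -1.86 (SE 0.53, adjusted p = 0.0491) held in 2 of 12 fits without 1 array, those without 2T3 C0 1 (0.0121) and MLO-Y4 high 2 (0.0155). In the other 10 fits the adjusted p rose as far as 0.130. With equal medians over all spots it was 0.105 and with quantile normalization 0.225. With the higher floor the difference was -0.45 (adjusted p = 0.173).

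Cyp24a1, which inactivates vitamin D in bone cells and kidney, had the largest P450 difference, 3.11, but also a wide error (SE 1.26, adjusted p = 0.154). It was named after its values were seen, and was called without MLO-Y4 high 1 and with the array number across groups as a fixed block. Its readings were 0, 37.7 and -4.85 in 2T3 low, 7.15, 45.1 and -2.88 in 2T3 C0, 18.7, 366 and 127 in MLO-Y4 low and -1.89, 476 and 214 in MLO-Y4 high. The limit was passed on 2 of 6 2T3 arrays and 5 of 6 MLO-Y4 arrays, with overlap. Cyp51, the lanosterol demethylase of cholesterol synthesis, was at -0.57 (SE 0.50, adjusted p = 0.529), and Cyp1a1, a target of the aryl hydrocarbon receptor, at -1.13 (SE 0.69, adjusted p = 0.348).

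Genes around these enzymes were read from 7 lists of 123 genes, of which 63 were measured. Of these 7 were higher and 7 lower in MLO-Y4 (22.2%, against 10.9% of all spots), with a median of -0.25 (all spots -0.41). The lists were chosen with earlier results of these data known, so the share called is not a result about them. Without the 4 arrays numbered 1, 4 of the 14 kept their call, Hp, Sqstm1, Abcc1 and Xdh. Among 10 NRF2 regulators and partners 1 rose and 3 fell, with a median of -1.004. Sqstm1, whose product p62 binds KEAP1 and carries it to autophagy, rose by 1.498 (SE 0.33, adjusted p = 0.0139), from 146 to 413. Its arrays read 146, 136 and 87.3 in 2T3 low, 241, 117 and 199 in 2T3 C0, 399.9, 276 and 219 in MLO-Y4 low and 827, 621 and 399 in MLO-Y4 high.

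The 3 that fell encode parts of the machinery that acts on or with NRF2. Cul3, the scaffold of the ubiquitin ligase that KEAP1 guides to NRF2, fell by 3.20 (SE 0.65, adjusted p = 0.00969), at 18.9, 37.7 and 199 in 2T3 low, 76.3, 35.3 and 166 in 2T3 C0, 3.56, 4.31 and 15.9 in MLO-Y4 low and 8.504, 1.29 and 10.4 in MLO-Y4 high. Of 6 MLO-Y4 arrays 1 was above the limit. Rbx1, the RING subunit of that ligase, fell by 2.61 (SE 0.55, adjusted p = 0.0109). It read 173, 285 and 272 in 2T3 low and 83.4, 15.6 and 58.7 in 2T3 C0. MLO-Y4 arrays read 28.4, 10.1 and 33.3 in low and 12.3, 28.96 and 5.93 in high, so the lines overlapped. Mafk, a small MAF protein that pairs with NRF2 on DNA, fell by 1.52 (SE 0.31, adjusted p = 0.0102). Its 2T3 arrays read 230, 429 and 272 in low and 160, 152 and 142.1 in C0, and MLO-Y4 high 2 reached 142.2. For both genes every C0 array lay below every 2T3 low array. Keap1 itself was at -0.64 (SE 0.69, adjusted p = 0.615). With equal medians over all spots none of the 3 was called, at adjusted p of 0.0623 for Cul3, 0.119 for Rbx1 and 0.413 for Mafk, nor without the 4 arrays numbered 1 (0.0856, 0.122 and 0.0859). Cul3 also lost its call with quantile normalization (0.105) and with the higher floor, at -1.83 (0.105).

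Haem and iron genes, the surroundings of Hmox1, rose in 3 of 10 cases and fell in 1. That is 30% and 10%, against 4.77% and 6.12% of all spots. The median was 0.89 (all spots -0.41). As this list was chosen with earlier results known, the share called is not a result about it. Hp, the plasma protein that binds free haemoglobin, passed the limit on 0 of 6 2T3 arrays. It was higher in MLO-Y4 by 6.15 (adjusted p = 9.13e-06). With each 2T3 reading put at its array's limit the rise was 33.5-fold. With the higher floor the log2 difference was 4.16 (adjusted p = 0.000151), so its size depends on the floor. Fth1, the ferritin heavy chain that stores iron, read 584, 3416 and 3600.2 in 2T3 low, 1258, 2748 and 3786 in 2T3 C0, 7697, 6282 and 10611 in MLO-Y4 low and 5427, 7857 and 18321 in MLO-Y4 high. It rose by 2.01 (SE 0.54, adjusted p = 0.0365), from 2132 to 8587. Cp, the copper ferroxidase ceruloplasmin, read 65.05, 0 and 4.85 in 2T3 low, 0, 3.63 and 29.9 in 2T3 C0, 95.98, 106 and 50.7 in MLO-Y4 low and 138, 91.4 and 35.6 in MLO-Y4 high, above the limit on 2 of 6 2T3 arrays and all 6 MLO-Y4 arrays. Its log2 rise was 3.07 (SE 0.78, adjusted p = 0.0288). The size depends on the floor under the 2T3 readings, and with the higher floor it was 1.70 and not called (adjusted p = 0.0572). Without 2T3 low 1 it was 3.85. Fech, which inserts iron to make haem, fell by 1.45 (SE 0.39, adjusted p = 0.0385). Without 1 array, Fech lost its call in 10 of 12 fits, Cp in 8 and Fth1 in 7, with adjusted p up to 0.0886, 0.0714 and 0.0786. The calls that held were those without 2T3 low 3 or MLO-Y4 low 3 for Fech, without 2T3 low 1, 2T3 C0 3, MLO-Y4 low 3 or MLO-Y4 high 3 for Cp, and without 1 of the 2T3 low arrays, 2T3 C0 3 or MLO-Y4 high 1 for Fth1. Without the 4 arrays numbered 1 the adjusted p was 0.0622 for Fech, 0.0593 for Cp and 0.0535 for Fth1. Fech was not called with equal medians over all spots (0.376) or quantile normalization (0.0903). Hp kept its call in all 12 fits.

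Few genes of the remaining lists were called, 8.33% to 20% of a list against 10.9% of all spots. Of 5 genes that supply NADPH, 1 fell, the mitochondrial isocitrate dehydrogenase gene Idh2 (-1.99, SE 0.39, adjusted p = 0.00793), and 0 rose. Its call ended with equal medians over all spots (0.141), quantile normalization (0.0531) and without the 4 arrays numbered 1 (0.0628). Of 6 other metal-handling genes 1 fell, the zinc exporter gene Slc30a4 (-3.08, SE 0.69, adjusted p = 0.0148), 8.43-fold and 5.61-fold without MLO-Y4 high 1. It was not called with equal medians over all spots (0.0594) or without the 4 arrays numbered 1 (0.118). Among 7 oxidant-producing enzymes 1 rose, the xanthine dehydrogenase gene Xdh (2.21, SE 0.47, adjusted p = 0.0121).

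Other detoxifying enzymes split. Of 13 microsomal and conjugating genes 1 rose, Abcc1, which exports glutathione conjugates (2.03, SE 0.44, adjusted p = 0.0132), and 1 fell, the flavin monooxygenase gene Fmo1 (-1.78, SE 0.49, adjusted p = 0.0396). Of 12 other NRF2-linked enzyme genes 1 rose, the carbonyl reductase gene Cbr1 (1.66, SE 0.47, adjusted p = 0.0488). Fmo1 lost its call in 8 of 12 fits without 1 array, with adjusted p up to 0.0974, and Cbr1 in 10, with adjusted p up to 0.106. The fits that kept them were without 2T3 low 1, 2T3 low 3, 2T3 C0 1 or MLO-Y4 low 3 for Fmo1 and without 2T3 low 3 or MLO-Y4 low 3 for Cbr1. Both were also lost with quantile normalization (0.0754 and 0.0768) and without the 4 arrays numbered 1 (0.0786 and 0.122). With equal medians over all spots Fmo1 was lost too (0.137), as was every other list gene that fell.

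Within each line the question was whether these genes respond to culture density. In 2T3, limma called 0 of 79 members between C0 and low at adjusted p 0.05, as it did for 0% of all 5030 spots. At an unadjusted p under 0.05 there were 5 members (6.33%) against 4.35% of spots, and the groups of 3 arrays did not overlap for 6 members (7.59%) against 8.21%. The smallest p was that of Mt1, whose 3 C0 arrays all lay above the 3 low arrays. Its means were 1856 in low and 5178 in C0, which did not pass the test (log2 1.48, SE 0.47, adjusted p = 0.979).

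Gstt1, also without overlap, was at 1.40 for C0 minus low (SE 0.54, adjusted p = 0.979), with means of 13.9 in low and 36.6 in C0. Txnl1, a thioredoxin-like gene, was at -2.15 (SE 0.75, adjusted p = 0.979), at 31.2, 31.3 and 53.4 in 2T3 low and 3.18, 15.6 and 9.21 in C0. Of these, 3 of 3 low arrays and 1 of 3 C0 arrays were above the limit. Hmox1 was at 0.72 (SE 0.48) and Aldh3a1 at 0.96 (SE 0.54), each with an adjusted p of 0.979.

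In MLO-Y4, between high and low, limma likewise called 0 of 79 members and 0% of spots, and 0 members had an unadjusted p under 0.05 (1.51% of spots). The groups did not overlap for 3 members (3.8%, against 4.33%). The errors and intervals here come from the fit without pairing by array number. Mt1 was higher on each high array than on the low array of its number. Of the genes higher in this line, Mt1 was at 0.26 for high minus low (SE 0.47, interval -0.78 to 1.30), Hmox1 at -0.096 (SE 0.48, interval -1.14 to 0.95), Gstt1 at 0.023 (SE 0.54, interval -1.17 to 1.22) and Aldh3a1 at 0.51 (SE 0.54, interval -0.69 to 1.71).

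The 3 smallest p-values in MLO-Y4, none under 0.05 before adjustment, belonged to P450 genes, which make up 33 of the 79 members. Cyp1b1, which hydroxylates oestrogens, was at -1.16 (SE 0.56, adjusted p = 1.00), at 20.4, 28.7 and 30.4 in low and 19.8, 10.9 and 7.42 in high. Cyp11a1, which starts steroid synthesis from cholesterol, was at -1.49 (SE 0.73, adjusted p = 1.00), at 329.7, 74.7 and 75.3 and 15.1, 71.4 and 77.2. That value rests on the pair of arrays numbered 1, without which, and without the 2T3 arrays of that number, it was -0.090. Cyp7b1, an oxysterol hydroxylase gene, was at 1.67 (SE 0.95, adjusted p = 1.00), at 10.7, 7.18 and 5.79 and 104, 8.37 and 16.3. Its value rests on MLO-Y4 high 1, without which it was 0.61, and it was 0.78 without the 4 arrays numbered 1.

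**Figure D5:**
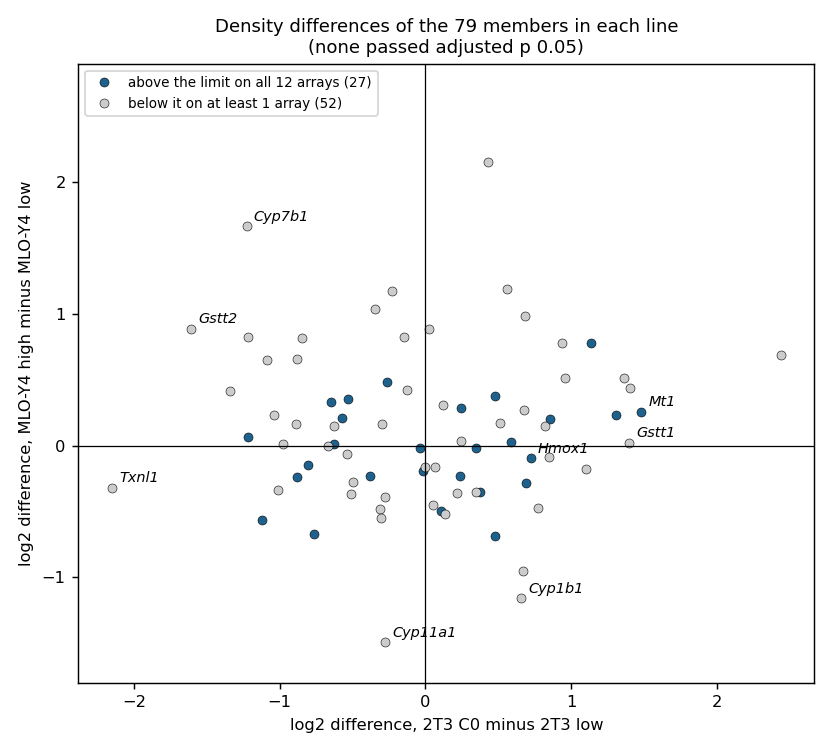
Log2 difference with density in 2T3 (C0 minus low, horizontal) against that in MLO-Y4 (high minus low, vertical) for the 79 members, in blue for the 27 above the detection limit on all arrays and in grey for the other 52. No member passed adjusted p 0.05 on either axis; Mt1 and Gstt1 lie to the right near 0 on the vertical axis, and Txnl1 lies furthest left.

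The density effects of the lines were compared directly as (MLO-Y4 high minus low) minus (2T3 C0 minus low), and limma called 0 of 79 members and 0% of spots. At an unadjusted p under 0.05 there were 2 members (2.53% against 2.09% of spots). Gstt2 had a difference of 2.50 (SE 1.02), made of -1.61 in 2T3 and 0.89 in MLO-Y4, where 0 of 6 arrays passed the limit. Cyp1b1 was at -1.81 (SE 0.79) and Cyp7b1 at 2.89 (SE 1.34). Each of the 3 had an adjusted p of 0.999. Without 1 array, the difference ran from 1.73 (without 2T3 low 2) to 3.35 (without 2T3 low 3) for Gstt2, from 1.76 (without MLO-Y4 high 1) to 3.66 (without MLO-Y4 high 2) for Cyp7b1 and from -2.23 to -1.32 for Cyp1b1. For Mt1, whose 2T3 arrays parted by density, the difference between the effects was -1.22 (SE 0.67, adjusted p = 0.999).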

How the data were processed

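The authors deposited 1 background-subtracted spot intensity per array, linear and not visibly normalized, as read from the values. For image software, background method and filters, nothing is given in the sources used here. Spots were named through the platform annotation (4638 of 5030 listed, 4633 with 1 symbol), with 4624 symbols updated by Entrez identifier. Arrays were scaled on spots above the limit everywhere because on several arrays the median of all spots is a background reading. Values were floored at the 25th percentile, since the 10th is below 0 (-1.29). At the floor lay 21.9% of member values and 25.1% of all.

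Limma 3.58.1 in R 4.3.3 fitted 4 group means over the 12 arrays (8 residual degrees of freedom) with two-sided eBayes tests, and was tested on simulated data. Intervals are 95% intervals of this fit. Alternatives changed the scaling, the floor, the filter on dim spots, the use of array numbers and the arrays included. Members and gene lists were chosen with earlier results of these data known. Genes were named by a rule: Hmox1, Aldh3a1, Mt1 and Gstt1, every called member, per family the smallest p between lines, the 3 smallest p in each density comparison and in their difference, and in each list every called gene. Other members are given beside these for their role. The array numbers come from the labels, which do not say what they mark. Same-numbered MLO-Y4 arrays deviated together (correlations across spots 0.684, 0.500 and 0.527), so they count as paired. The standard errors and intervals given above come from the fit that leaves this pairing out. 2T3 C0 arrays deviated with same-numbered MLO-Y4 arrays too (0.272 to 0.540), so the number links these 3 groups. 2T3 low arrays did so in part, at 0.0840, 0.108 and 0.128 with 2T3 C0 and -0.0758 to 0.154 with MLO-Y4. The precision is limited by 3 arrays per group.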

Additional observations from a re-analysis of the deposited data

How the results depend on the processing

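Of the members called between the lines, Hmox1, Aldh3a1, Mt1, Gstt1 and Txnrd2 were called under every alternative run. The count of 10 became 11 with equal medians over all spots, 10 with quantile normalization, 9 with the floor at the highest scaled limit, 10 of 64 with spots above the limit on at least 3 arrays, and 7 to 10 without 1 array. With the replicate block, number within line as random (correlation 0.246), it was 8, losing Txnrd1 (adjusted p = 0.0727) and Cyp11b2 (0.101). With the number across all groups as a fixed replicate block it was 12, adding Cyp24a1 and Cyp4b1. The blocks ended no other call among the 10. That fixed block ended the calls of the list genes Cbr1 (0.0620), Fech (0.0513) and Fmo1 (0.0521). With the random block the list genes Cbr1 (0.0901), Cp (0.0722), Fech (0.0769), Fmo1 (0.106) and Fth1 (0.0572) were lost too, and with the higher floor Cyp11b2 (0.173), Cul3 (0.105), Cp (0.0572), Fmo1 (0.390) and Fth1 (0.0603). Without the 4 arrays numbered 1, an alternative chosen after seeing the data, it was 7. The sign of 1 named gene turned, that of Prdx3 with equal medians over all spots (0.028). Density counts were 0 members under every alternative, replicate blocks included. Equal medians over all spots moved the median difference of spots above the limit on all arrays from -0.072 to 0.79. The floor lies below every array's scaled limit, so readings between them are ordered in the fit though not above background.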
